A study of Homo sapiens with 14 samples.

Results

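The comparison set 3 HEK293 cell lines that carry V5-tagged HOXD13 (the mix, clone a and clone b) against 3 arrays of HEK293 cells with the empty V5-tag vector, across all genes. These are 6 of the 14 arrays of the study. The fourth HOXD13 line, clone c, was left out by a choice made from the measured values, because its profile departs from the other 3 lines. The members were therefore selected on the outcome, the difference between these 6 arrays is described without a p-value, and clone c is given beside it. Tests come from all 4 HOXD13 lines against the V5 vector arrays, the groups as labelled.

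HEK293 is a human cell line derived from embryonic kidney. Every line in the series was transfected and then grown under G418, the drug that kills cells without the vector's resistance gene, in RPMI 1640 medium with 10% serum. The mix is the G418-resistant population transfected with V5-tagged HOXD13, and clones a, b and c were picked from that mix, so the 4 lines share a source and no 2 of them come from separate transfections by their labels. The 3 vector arrays are labelled biological replicates of cells with the V5-tag vector, without a statement of how the cultures were separated. P-values therefore measure only the spread between these arrays. The other 7 arrays hold HA-tagged HOXD9 lines and their HA-tag vector cells, and they entered the estimate of spread, the filter on dim probe sets and the choice of the probe set that stands for each gene. Each sample is the RNA of a whole culture, in which fewer cells with a transcript and less of it in each cell cannot be told apart.

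HOXD13 is the last gene of the HOXD cluster, a homeodomain transcription factor that patterns the digits and the urogenital tract in the embryo. HOX proteins bind short AT-rich DNA sites, often with partners of the TALE class, and the posterior members prefer sites that begin with TTTA. FOS, EGR1, MYC and ARC belong to the immediate early genes, which are transcribed within minutes of a growth factor, calcium or cAMP signal and do not need new protein for it. PTGER4 encodes the prostaglandin E2 receptor EP4, a receptor coupled to cAMP production, and OR51E2 encodes an odorant receptor that is also found in the prostate.

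Levels are log2 values after GCRMA, a method that corrects for background and normalizes between arrays, so a difference of 1 is a 2-fold change. A gene is represented by its brightest probe set over the 14 arrays, and 10349 genes with a value of at least 5 on at least 3 arrays were measured. The ratio of 3′ to 5′ control probe sets, a sign of RNA length, differed between the groups. For ACTB the 3′ minus 5′ difference was 2.13, 2.01, 1.82 and 2.80 in the mix and clones a, b and c, with the vector arrays at 2.24, 2.26 and 2.19. The 3 lines lay below all vector arrays and clone c above them. GAPDH gave 0.53, 0.57 and 0.56 in the 3 lines and 0.86 in clone c, against 0.72, 0.69 and 0.68 in the vector arrays. The part of RNA quality in the differences below was not tested, apart from a fit with the ACTB value as a covariate.

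HOXD13 itself was far higher in the transfected lines on 2 of its 3 probe sets. The brightest in these lines read 12.32, 12.55, 12.59 and 12.24 in the mix and clones a, b and c, with the vector arrays at 6.84, 7.01 and 6.94. The difference of the 3 lines was 5.56, or 47.2-fold. The dimmest read 8.39, 8.39 and 8.41 in the 3 lines and 8.26 in clone c, against 3.05, 3.45 and 3.44 in the vector arrays, a difference of 5.08 or 33.9-fold. Every HOXD13 line stood above every vector array on both, and the adjusted p of the 4 lines was 2.23e-11 and 1.45e-11 over all probe sets. On the third the 3 lines read 10.15, 10.23 and 10.42, against 8.93, 8.94 and 8.95 in the vector arrays, a difference of 1.33 or 2.51-fold. Clone c read 8.87 on that probe set, just below the vector arrays, and the adjusted p of the 4 lines was 0.0473. That call ended without any V5 vector array, the mix, clone a or clone b (adjusted p up to 0.146). Which stretch of the transcript each probe set reads is not stated in the labels, and the third, brightest over all 14 arrays, is the one that stands for HOXD13 among the genes.

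**Figure D1:**
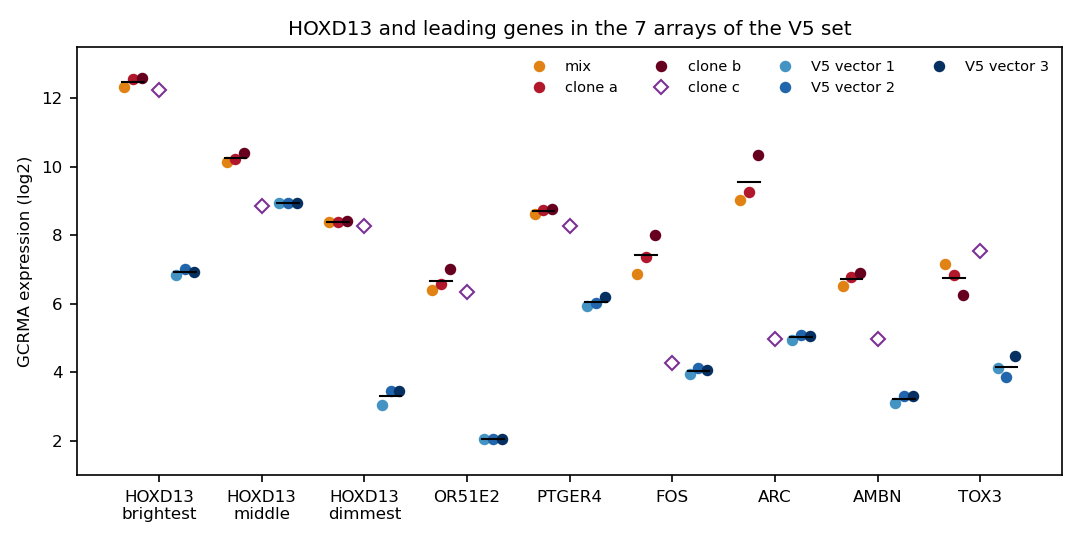
GCRMA level (log2) of the 3 HOXD13 probe sets and of 6 genes in each array, with the HOXD13 lines left of the V5 vector arrays in every column. Circles are arrays of the comparison, the open diamond is clone c, and bars are the means of the mix with clones a and b and of the vector arrays. Clone c sits with the vector arrays for FOS and ARC and with the other lines for OR51E2, PTGER4 and TOX3.

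Of the 10349 genes, 360 were at least 2-fold higher in the 3 lines with no overlap between the 3 lines and the 3 vector arrays, which is 3.48% of genes. A further 266 were at least 2-fold lower without overlap, which is 2.57%. These genes are called counted below, a description and not a test. Without a size threshold the arrays did not overlap for 32.1% of genes in the higher and 36.0% in the lower direction, so lack of overlap is common here. Only 36 of the 360 were at least 4-fold higher and 6 at least 8-fold, whereas 10 of the 266 were at least 4-fold lower and 0 at least 8-fold. Of the 360 genes, 50 had a vector mean under 5, the level of a dim probe set, and of the 266 genes 60 had a mean under 5 in the 3 lines. Where a counted gene had several measured probe sets, all had the same sign for 100 of 118 genes in the higher and 68 of 79 in the lower direction.

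The test of all 4 lines (limma, with two-sided p-values and the Benjamini-Hochberg adjustment across 10349 genes) called 298 genes higher (2.88%) and 803 lower (7.76%) at an adjusted p under 0.05. It called 122 of the 360 genes counted higher (33.9%) and 162 of the 266 counted lower (60.9%), and 0 in the opposite direction. The adjusted p values below are all from that test, and "rose" and "fell" are kept for its calls. Sizes are those of the 3 lines unless the 4 lines are named, so a size and the adjusted p beside it come from different sets of lines. The number of calls turned on single arrays and on the RNA quality covariate. With the ACTB 3′ minus 5′ value in the fit it was 1072 higher and 1524 lower. Without clone c it was 1959 higher and 1742 lower, a fit on the 3 lines selected by their values. Without a V5 vector array it was 58 to 65 higher and 245 to 295 lower. Without the mix it was 103 higher and 453 lower, without clone a 95 and 386, and without clone b 112 and 470.

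**Figure D2:**
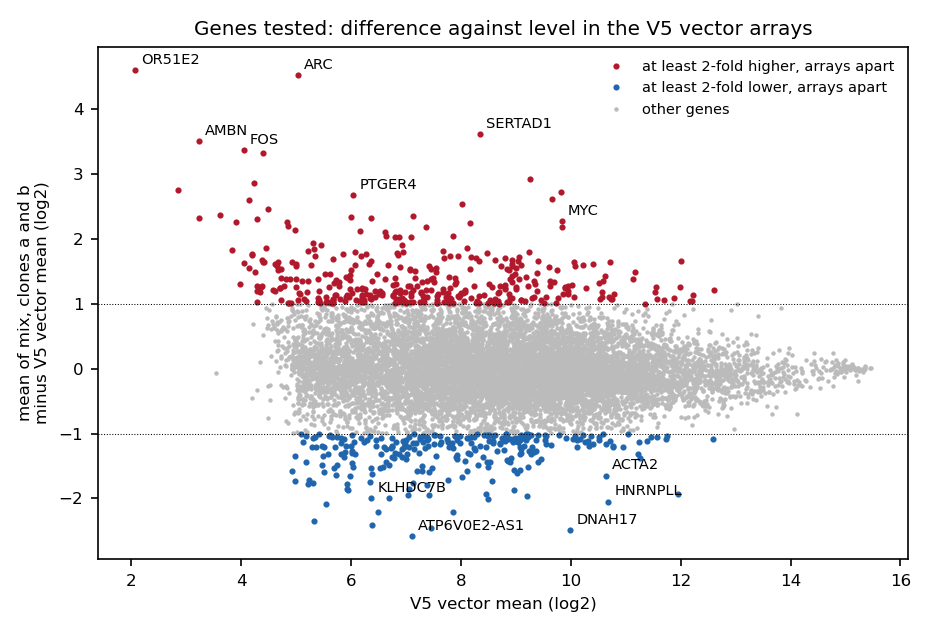
Difference between the mean of the mix with clones a and b and the V5 vector mean (log2, y axis) against the V5 vector mean (log2, x axis) for the 10349 genes. Red marks the 360 genes and blue the 266 genes at least 2-fold apart with no overlap of arrays, and dotted lines mark 2-fold. The largest differences are upward, among them OR51E2, ARC, SERTAD1, AMBN and FOS.

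Among the 105 genes chosen by the naming rule, 68 were called by the test of all 4 lines. Of these, 23 were called without each of the 7 arrays of the V5 set in turn. The other 45 calls ended without at least 1 array, and 25 of them were kept only without clone c. Of the 37 that were not called, 32 were called without clone c and 0 without any other single array. Clone c was left out of the comparison for its values, and many of these genes were named by a difference taken without it. Calls gained or kept without clone c, here and for single genes below, were therefore largely set by that choice. They are no independent test of those genes. List members named outside the rule are not in these counts.

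OR51E2 had the largest difference of all genes when each gene was read on the probe set that stands for it. For HOXD13 that probe set gave 1.33 in the 3 lines, while its other probe sets gave 5.56 and 5.08, more than OR51E2. OR51E2 read 6.39, 6.57, 7.01 and 6.33 in the mix and clones a, b and c, against 2.07 in each of the vector arrays. All 4 HOXD13 lines stood far above the vector arrays, which lay near the lowest value in the whole table, 1.83. The 3 lines were 4.59 higher (24.1-fold), and the 4 lines rose by 4.51 with a standard error of 0.13 (adjusted p = 5.15e-10). The size of that difference depends on the floor of the vector values. The call held without any of the 7 arrays.

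PTGER4 read 8.61, 8.75 and 8.77 in the mix, clone a and clone b and 8.27 in clone c, against 5.94, 6.01 and 6.19 in the vector arrays. The 3 lines lay close together and stood well clear of the vector arrays. They were 2.67 higher (6.35-fold), and the 4 lines rose by 2.56 with a standard error of 0.17 (adjusted p = 3.64e-06). This call also held without any of the 7 arrays.

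TOX3, which encodes a nuclear protein with an HMG box, was likewise higher than every vector array in all 4 HOXD13 lines. It read 7.15, 6.85, 6.24 and 7.54 in the mix and clones a, b and c, with the vector arrays at 4.12, 3.87 and 4.46. Clone b was the lowest of the 4 lines and still well above the vector arrays. The difference of the 3 lines was 2.60, with 3 probe sets between 1.36 and 2.60 (adjusted p = 5.69e-05), and the call held.

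AMBN encodes ameloblastin, a protein of the enamel matrix. It read 6.52, 6.78 and 6.89 in the 3 lines and 4.96 in clone c, against 3.10, 3.30 and 3.30 in the vector arrays. Clone c lay between the 3 lines and the vector arrays. The 3 lines were 3.50 higher (11.3-fold, adjusted p = 0.00055), and the call held.

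PHEX-AS1, a long non-coding RNA, had the same order of arrays. Its levels were 6.59, 7.23 and 7.47 in the 3 lines and 5.42 in clone c, against 4.03, 4.23 and 4.48 in the vector arrays, a difference of 2.85 (adjusted p = 0.00408) that held. TENT5C, a poly(A) polymerase of the non-canonical type, was 2.53 higher in the 3 lines (10.24, 10.66 and 10.78, with 8.58 in clone c, against 7.98, 8.07 and 8.03 in the vector arrays). Its adjusted p was 0.00722 and the call held without any of the 7 arrays.

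HSF2BP, a partner of heat shock factor HSF2 that acts in meiotic recombination, was 2.75 higher (5.08, 5.56 and 6.18 in the 3 lines and 3.53 in clone c, against 3.36, 2.80 and 2.39 in the vector arrays). Its adjusted p was 0.00952 with all arrays and 0.059 without V5 vector 3. The vector arrays of HSF2BP were dim and spread by almost a log2 unit.

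For the remaining genes with the largest higher values, clone c lay at or near the vector level. ARC, an immediate early gene that neurons use at synapses, read 9.04, 9.27, 10.33 and 4.97 in the mix and clones a, b and c, with the vector arrays at 4.95, 5.09 and 5.06. Clone b was the highest line and clone c lay among the vector arrays. The 3 lines were 4.51 higher (22.8-fold), and the 4 lines rose by 3.37 with a standard error of 0.88 (adjusted p = 0.0297).

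FOS, the partner of JUN in the transcription factor AP-1, read 6.87, 7.37 and 8.0 in the 3 lines and 4.28 in clone c, against 3.96, 4.11 and 4.08 in the vector arrays. Clone c stood 0.23 above the vector mean. The 3 lines were 3.37 higher (10.3-fold), and the 4 lines rose by 2.58 with a standard error of 0.61 (adjusted p = 0.0192).

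SERTAD1, a coregulator that binds the kinase CDK4, was among the brightest of these genes at 11.59, 12.02 and 12.25 in the 3 lines and 8.13 in clone c, against 8.30, 8.40 and 8.34 in the vector arrays. Clone c was below all vector arrays. The difference of the 3 lines was 3.61 (12.2-fold, adjusted p = 0.0336). MYC, a transcription factor of growth, read 11.87, 12.21 and 12.22 in the 3 lines and 9.64 in clone c, against 9.83, 9.82 and 9.85 in the vector arrays, a difference of 2.27 (4.82-fold, adjusted p = 0.0397).

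MIR7-3HG, the host transcript of a miR-7 copy, read 7.01, 7.82 and 8.34 in the 3 lines and 4.24 in clone c, against 4.09, 4.51 and 4.59 in the vector arrays (adjusted p = 0.0397). KRTAP19-1, a keratin-associated protein of hair, read 12.27, 12.46 and 12.86 in the 3 lines and 9.58 in clone c, against 9.72, 9.82 and 9.92 in the vector arrays (adjusted p = 0.0409). Both were counted and called, with clone c inside or below the range of the vector arrays.

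B3GALT6, a galactosyltransferase of the glycosaminoglycan linker, was 2.60 higher on its brightest probe set (adjusted p = 0.0341) and differed by -0.32 on the other, and the mean of both gave 1.14 with the call lost. HSPA6, an inducible heat shock protein with a near-identical copy in HSPA7, read 11.93, 11.91 and 12.71 in the 3 lines and 9.18 in clone c, against 9.19, 9.27 and 9.33 in the vector arrays. Its difference of 2.92 was not called (adjusted p = 0.135), and signal from either copy cannot be told apart here. The calls of ARC, SERTAD1, MYC, MIR7-3HG, KRTAP19-1 and B3GALT6 ended without any V5 vector array, the mix, clone a or clone b (adjusted p up to 0.14), and that of FOS without any V5 vector array, the mix or clone a (up to 0.0755).

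Promoter windows of 4 genes that were higher in the 3 lines are shown. They are PTGER4, which was also high in clone c, and AMBN, for which clone c lay between the 3 lines and the vector arrays. The others are the immediate early genes FOS and EGR1. EGR1 is outside the naming rule. Each window runs from 250 bases before to 50 bases after the gene's start in RefSeq (GRCh38.p14), on the plus strand in all 4 cases. They were searched on both strands for TTTATTG and TTTACGA, sites of the posterior HOX type, and for the CArG box, the site of serum response factor, which was added after the values were seen. Capitals mark a match. The window of AMBN, chr4:70592006-70592305, holds TTTATTG on its minus strand 133 bases before the start, and that of EGR1, chr5:138465229-138465528, holds 2 CArG boxes at 105 and 83 bases before the start. The windows of PTGER4, chr5:40679665-40679964, and FOS, chr14:75278578-75278877, hold none of the 3 letter strings. Sequence outside the windows was not searched, so a site farther from the start would be missed. Of the counted genes with the largest higher differences that had a window, only AMBN and EGR1 had a match. How many of those genes had a window is not given here, so no share is drawn from them. Both matches are among the 4 windows shown, which therefore do not represent those genes.
AMBN: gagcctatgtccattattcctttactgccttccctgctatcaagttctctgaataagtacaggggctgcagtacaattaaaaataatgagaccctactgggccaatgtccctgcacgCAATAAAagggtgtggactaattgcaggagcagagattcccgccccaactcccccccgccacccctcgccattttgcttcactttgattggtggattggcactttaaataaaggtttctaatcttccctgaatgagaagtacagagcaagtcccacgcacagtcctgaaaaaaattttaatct
EGR1: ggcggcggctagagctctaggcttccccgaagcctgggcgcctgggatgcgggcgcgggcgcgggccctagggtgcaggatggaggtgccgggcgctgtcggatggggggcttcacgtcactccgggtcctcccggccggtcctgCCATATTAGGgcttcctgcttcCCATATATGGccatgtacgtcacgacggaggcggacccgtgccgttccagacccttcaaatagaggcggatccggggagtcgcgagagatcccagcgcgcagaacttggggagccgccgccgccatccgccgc
PTGER4: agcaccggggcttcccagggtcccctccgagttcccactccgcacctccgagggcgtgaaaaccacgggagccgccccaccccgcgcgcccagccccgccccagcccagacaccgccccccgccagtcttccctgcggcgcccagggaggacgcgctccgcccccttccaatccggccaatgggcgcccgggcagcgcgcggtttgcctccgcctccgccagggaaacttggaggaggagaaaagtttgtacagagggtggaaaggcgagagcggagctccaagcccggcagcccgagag
FOS: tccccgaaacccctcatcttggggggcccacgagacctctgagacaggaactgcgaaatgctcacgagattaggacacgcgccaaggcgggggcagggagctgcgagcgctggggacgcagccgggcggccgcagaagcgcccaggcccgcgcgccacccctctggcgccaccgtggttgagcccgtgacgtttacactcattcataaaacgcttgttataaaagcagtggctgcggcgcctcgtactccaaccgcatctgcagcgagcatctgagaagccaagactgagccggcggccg

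These motifs occurred in few promoters. Of the 12726 windows of genes measured here, 2.37% held TTTATTG, 0.652% TTTACGA and 1.19% a CArG box. A window was found for 287 of the 360 genes counted higher (79.7%), for 213 of the 266 counted lower (80.1%) and for 83.3% of all genes, so fewer than 80% of the higher genes had one and motif shares were not compared. A match of letters shows no binding.

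The 14 largest lower differences were 1.95 to 2.57 in size, beside 2.53 to 4.59 for the 14 largest higher ones, and 6 of the 14 lower genes were transcripts named as antisense RNAs. UNC5B-AS1 read 5.26, 4.90, 4.82 and 6.17 in the mix and clones a, b and c, with the vector arrays at 7.69, 7.23 and 7.43. Clone c was lower than every vector array too. The difference of the 3 lines was -2.46, and the 4 lines fell by 2.16 with a standard error of 0.26 (adjusted p = 0.000679), a call that held. SBF2-AS1 fell likewise, at 5.27, 5.14 and 4.86 in the 3 lines and 6.15 in clone c, against 7.0, 7.09 and 7.03 in the vector arrays (adjusted p = 0.00196), and its call held.

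ATP6V0E2-AS1 had the largest lower difference, -2.57, with levels of 5.24, 4.07 and 4.29 in the 3 lines and 6.56 in clone c, against 7.04, 7.16 and 7.12 in the vector arrays. It fell in the test of the 4 lines (adjusted p = 0.013), and the call ended without any of the vector arrays (up to 0.059). NCAM1-AS2 was 2.21 lower in the 3 lines, with clone c at the vector mean (adjusted p = 0.0387), and its call ended without any array other than clone c (up to 0.136). SDCBP2-AS1 and SOX21-AS1 differed by -2.41 and -2.34 in the 3 lines, clone c was above the vector mean for both, and neither was called (adjusted p = 0.0516 and 0.0716).

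KLHDC7B, a protein with kelch repeats, had close values in the 3 lines. It read 4.30, 4.37 and 4.43 in the 3 lines and 4.78 in clone c, against 6.17, 6.43 and 6.49 in the vector arrays. All 4 lines were below all vector arrays, by 2.0 for the 3 lines (adjusted p = 3.34e-06), and the call held. DNAH17, a dynein heavy chain of motile axonemes, read 8.16, 7.23 and 7.13 in the 3 lines and 8.82 in clone c, against 10.06, 9.90 and 10.01 in the vector arrays (adjusted p = 0.00186). Its call held, while its 2 probe sets differed by -2.49 and -0.28, with a mean of -1.38.

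HNRNPLL, a splicing regulator, was lower on all 3 probe sets, by 2.0 to 2.22. Its brightest read 9.15, 8.27 and 8.49 in the 3 lines and 10.27 in clone c, against 10.74, 10.65 and 10.67 in the vector arrays (adjusted p = 0.0106), and the call held. ACTA2, the actin of smooth muscle, read 9.15, 8.91 and 8.92 in the 3 lines and 9.76 in clone c, against 10.60, 10.65 and 10.68 in the vector arrays (adjusted p = 0.000913), and it held as well.

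C1RL, a serine protease like complement C1r, was 2.21 lower in the 3 lines (adjusted p = 0.0222), EID2B, an inhibitor of differentiation, 2.09 lower (adjusted p = 0.0397), and ANXA3, a calcium-dependent lipid-binding annexin, 1.96 lower (adjusted p = 0.0256). The calls of C1RL and EID2B ended without any array other than clone c (up to 0.132), and that of ANXA3 without any V5 vector array, the mix or clone a (up to 0.0952). A further pair were counted and not called. CA5BP1, a pseudogene, differed by -2.01 on 1 probe set and by 1.14 on the other, and ZNF594, a zinc finger gene, read 5.62, 4.45 and 4.03 in the 3 lines and 7.39 in clone c, against 6.66, 6.78 and 6.63 in the vector arrays.

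**Figure D3:**
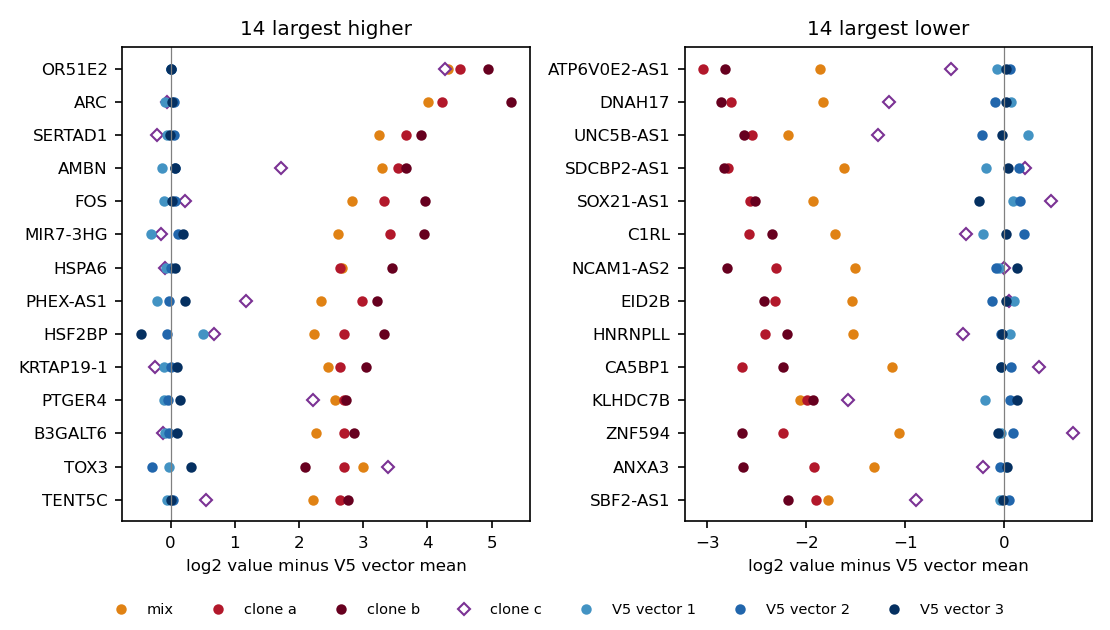
Level of each array minus the V5 vector mean (log2, x axis) for the 14 genes with the largest higher (left) and the 14 with the largest lower difference (right) among counted genes. Circles are the mix, clones a and b and the vector arrays, and the open diamond is clone c. The mix is the nearest of the 3 lines to the vector arrays for most genes, and clone c is near 0 for many.

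Gene type and length differed between the 2 directions. Long non-coding RNAs made up 8 of the 360 genes counted higher (2.22%) and 34 of the 266 counted lower (12.8%), beside 276 of all 10349 genes (2.67%). Names that end in an antisense suffix were 3 of the genes counted higher and 21 of those counted lower, beside 124 of all genes. The median length of the gene was 13.3 kb for those counted higher and 44.1 kb for those counted lower, beside 32.9 kb for all. In the 942 genes shorter than 5 kb, 9.98% were counted higher and 2.34% lower. In the 797 genes longer than 200 kb, 1.76% were counted higher and 2.89% lower. The 3′ to 5′ control ratio moved with the same split of arrays, and its part in this pattern was not tested.

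The 3 lines did not differ from the vector arrays to the same degree, and the cause of this was not tested. Over the 360 genes counted higher the median difference from the vector mean was 1.02 in the mix, 1.33 in clone a and 1.47 in clone b, and the mix had the smallest of the 3 differences in 349 genes. Over the 266 genes counted lower the medians were -0.96, -1.28 and -1.40, and the mix was nearest to the vector arrays in 206. Clone b was the farthest from the vector mean in 295 and 172 genes.

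Pairs of arrays showed the same order over all genes. Clones a and b were at least 2-fold apart in 2 genes, ARC and ARL6, the mix and clone a in 60, and the mix and clone b in 112. Clone c was at least 2-fold apart from the mix in 941 genes, from clone a in 1794 and from clone b in 2295, but from the vector arrays in 329 to 384. The mix differed from the vector arrays in 361 to 371 genes, clone a in 762 to 803 and clone b in 1026 to 1094, whereas no gene differed 2-fold between 2 vector arrays. Of the 112 genes between the mix and clone b, 83 were higher in the mix and 29 in clone b. The median standard deviation of a gene was 0.12 over the 3 lines and 0.05 over the 3 vector arrays.

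**Figure D4:**
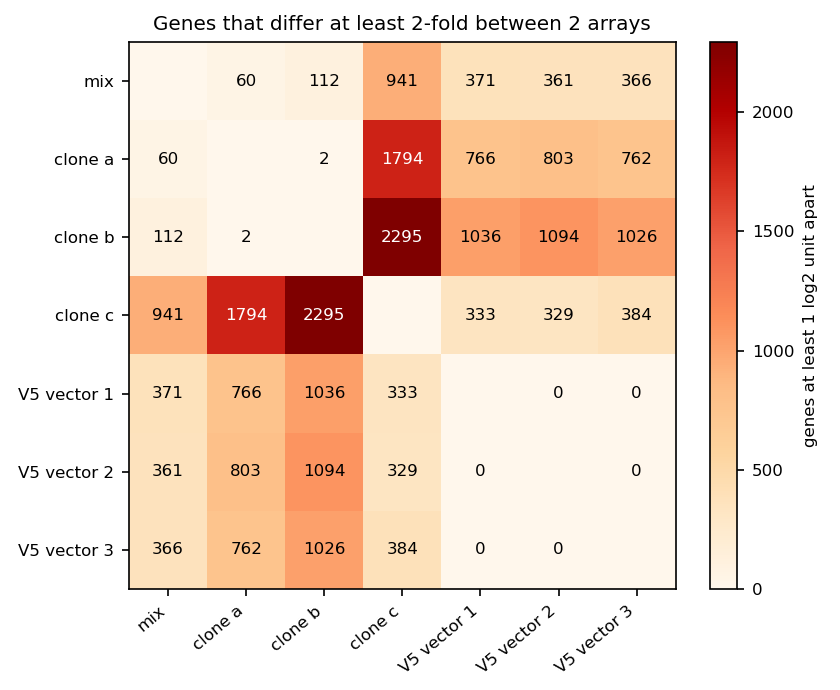
Number of genes, of 10349, at least 1 log2 unit apart between each pair of the 7 arrays of the V5 set, with the HOXD13 lines before the V5 vector arrays on both axes. Clones a and b differ in 2 genes and the vector arrays in none, while clone c differs from clone b in 2295.

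Gene groups were read from 36 lists, of which the array measured 441 of 697 entries. For each group the counts are given beside the shares over all genes above, with the median difference of the 3 lines, which was -0.03 over all genes, and no test of the list was made. Members called beyond the 3 of each list that the rule names were added after their values were seen, because the counts were small.

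Immediate early genes were higher as a group in the 3 lines. Of 22 measured, 12 were counted higher and 0 lower, and the median difference was 1.07, with 0.87, 1.17, 1.29 and -0.20 in the mix and clones a, b and c. FOS, ARC, MYC, ZFP36, an RNA-binding protein that destabilizes inflammatory messages, and KLF4, a zinc finger factor, rose. The difference was 1.68 for ZFP36 (adjusted p = 0.0272) and 0.91 for KLF4 (adjusted p = 0.0265), and both calls ended without any array other than clone c (up to 0.121). EGR1, a zinc finger factor, was 1.71 higher and CCN2, a secreted matrix protein, 1.85 higher, and neither was called (adjusted p = 0.0579 and 0.0525). JUN and ATF3, other AP-1 and CREB family factors, were not among the higher genes, with differences of -0.12 and -0.09. Clone c was below the vector mean for EGR1, MYC and JUN.

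ERK feedback genes, which are switched on by the MAP kinase ERK and in part restrain it, had a median of 0.85 over 14 measured, 5 counted higher and 0 lower. ERRFI1, an inhibitor of the EGF receptor, read 10.09, 10.40 and 10.40 in the 3 lines and 8.97 in clone c, against 8.56, 8.65 and 8.65 in the vector arrays (adjusted p = 0.00843), and the call held. DUSP6, a phosphatase of ERK, rose and was 1.27 higher in the 3 lines (adjusted p = 0.027), a call that ended without any V5 vector array, the mix or clone a (up to 0.113). CCND1, cyclin D1, and ETV5, an ETS factor, were 1.61 and 1.39 higher and were not called (adjusted p = 0.0705 and 0.129).

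Of 14 genes listed as EGF and FGF family ligands and receptors, 2 were counted higher and 0 lower, with a median of 0.12. The list also holds ligands of other families, PDGFA, PDGFC and VEGFA. HBEGF, a ligand of the EGF receptor, read 8.31, 8.55 and 8.96 in the 3 lines and 7.08 in clone c, against 6.76, 6.97 and 6.82 in the vector arrays (adjusted p = 0.0205). FGFR3, an FGF receptor, was 1.28 higher (adjusted p = 0.00805), and PDGFA, a growth factor ligand, was 0.86 lower (adjusted p = 0.00491). The calls of FGFR3 and PDGFA held, and that of HBEGF ended without any array other than clone c (up to 0.0841).

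In the prostaglandin E2 pathway 2 of 7 measured genes rose, and its median was 0.23. Beside PTGER4 this was PTGS2, the inducible cyclooxygenase, at 5.52, 5.51 and 5.63 in the 3 lines and 6.06 in clone c, against 4.63, 4.64 and 4.42 in the vector arrays (adjusted p = 0.02). Clone c was the highest array for PTGS2, and the call ended without any of the vector arrays (up to 0.0943). PTGES2 and PTGES3, enzymes of prostaglandin E synthesis, differed by 0.23 and -0.25 and were not called.

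Among 9 targets of cAMP and CREB the median was 0.06 and 2 were counted higher. RGS2, which speeds the turnoff of G proteins, read 10.08, 10.32 and 10.35 in the 3 lines and 9.06 in clone c, against 8.40, 8.43 and 8.61 in the vector arrays (adjusted p = 0.00408), and the call held. SIK1, a kinase induced by cAMP, was 1.57 higher (adjusted p = 0.0229), with the call lost without any V5 vector array, clone a or clone b (up to 0.0908).

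Among the other HOX genes, 2 of 6 measured HOXC genes were counted higher and 0 of 8 HOXB genes and 0 of 6 HOXD genes other than HOXD13 were counted in either direction. Of 11 HOXA genes 1 had a probe set of a single gene, which read at most 2.94 on the 7 arrays, and the others were not analysed here. Of the HOXB genes 0 were called by limma (2 at an unadjusted p under 0.05, median -0.09), and 1 of these HOXD genes was called (median 0.35). That gene was HOXD10, 0.35 higher in the 3 lines and 0.76 higher in clone c (adjusted p = 0.0351), with the call lost without any V5 vector array, the mix or clone a (up to 0.139). In the HOXC cluster (median 0.46) HOXC9 was 3.03-fold higher and read 8.0, 8.40 and 8.41 in the 3 lines and 7.57 in clone c, against 6.67, 6.65 and 6.70 in the vector arrays (adjusted p = 0.00162), and the call held. HOXC13 was 1.33 higher (2.52-fold) and was not called (adjusted p = 0.0768). Of 9 TALE class cofactors, the partners of HOX proteins on DNA, 1 fell (median 0.05). It was PKNOX2, 0.95 lower in the 3 lines (adjusted p = 0.0397), and its call ended without any array other than clone c (up to 0.142).

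Genes of limb and urogenital development, where HOXD13 acts in the embryo, had a median of 0.46 over 18 measured, with 3 counted higher and 0 lower. MSX2, a homeobox factor of the limb bud, read 10.78, 11.20 and 11.10 in the 3 lines and 9.77 in clone c, against 9.66, 9.74 and 9.68 in the vector arrays (adjusted p = 0.04). BMP2, a secreted growth factor of bone and limb, and EFNB2, an ephrin ligand, were 0.98 and 0.86 higher (adjusted p = 0.0119 and 0.0377). The BMP2 call ended without any of the vector arrays (up to 0.0566), and the calls of MSX2 and EFNB2 without any array other than clone c (up to 0.139). IRX5 and PITX1, homeobox factors, were counted higher at 1.17 and 1.07 and were not called.

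In the NOTCH list (13 measured, median 0.55, 2 counted higher) the ligand JAG1 rose, at 9.70, 9.88 and 10.04 in the 3 lines and 8.97 in clone c, against 8.65, 8.76 and 8.66 in the vector arrays (adjusted p = 0.01). The NOTCH target HEY1 rose and was 0.99 higher in the 3 lines (adjusted p = 0.034). The call of JAG1 ended without V5 vector 3 (0.0524) and that of HEY1 without any array other than clone c (up to 0.118). HEY2 was 1.10 higher on its brightest probe set and 1.24 lower on the other, and its direction turned with the mean of both.

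Targets of BMP and TGF-beta had a median of 0.34 over 15 measured, with 5 counted higher and 1 lower. BAMBI, a decoy receptor, and NOG, the BMP antagonist noggin, rose with differences of 1.41 and 1.19 (adjusted p = 0.0492 and 0.0486). Both calls ended without any array other than clone c (up to 0.174). INHBE, an inhibin subunit, was 1.0 lower (adjusted p = 0.00888) and held. ID1, an inhibitor of basic helix-loop-helix factors, was 1.66 higher in the 3 lines and 0.45 lower in clone c, and it was not called (adjusted p = 0.0955).

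Of 14 WNT targets and regulators (median 0.23), 3 were counted higher and 0 lower, while 4 rose and 1 fell in the test. TNFRSF19, a receptor of the TNF family, read 7.19, 7.56 and 7.56 in the 3 lines and 7.0 in clone c, against 6.28, 6.19 and 6.17 in the vector arrays (adjusted p = 0.00144), and the call held. SFRP1, a secreted WNT antagonist, SP8, a zinc finger factor of limb outgrowth, and LGR5, a receptor for R-spondin, also rose, and were 1.07, 1.03 and 0.46 higher in the 3 lines. APCDD1, a WNT inhibitor, fell and was 0.99 lower in the 3 lines. The calls of SFRP1 and LGR5 ended without any array other than clone c (up to 0.14), that of SP8 without any V5 vector array, clone a or clone b (up to 0.108), and that of APCDD1 without any V5 vector array, the mix or clone a (up to 0.112).

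**Figure D5:**
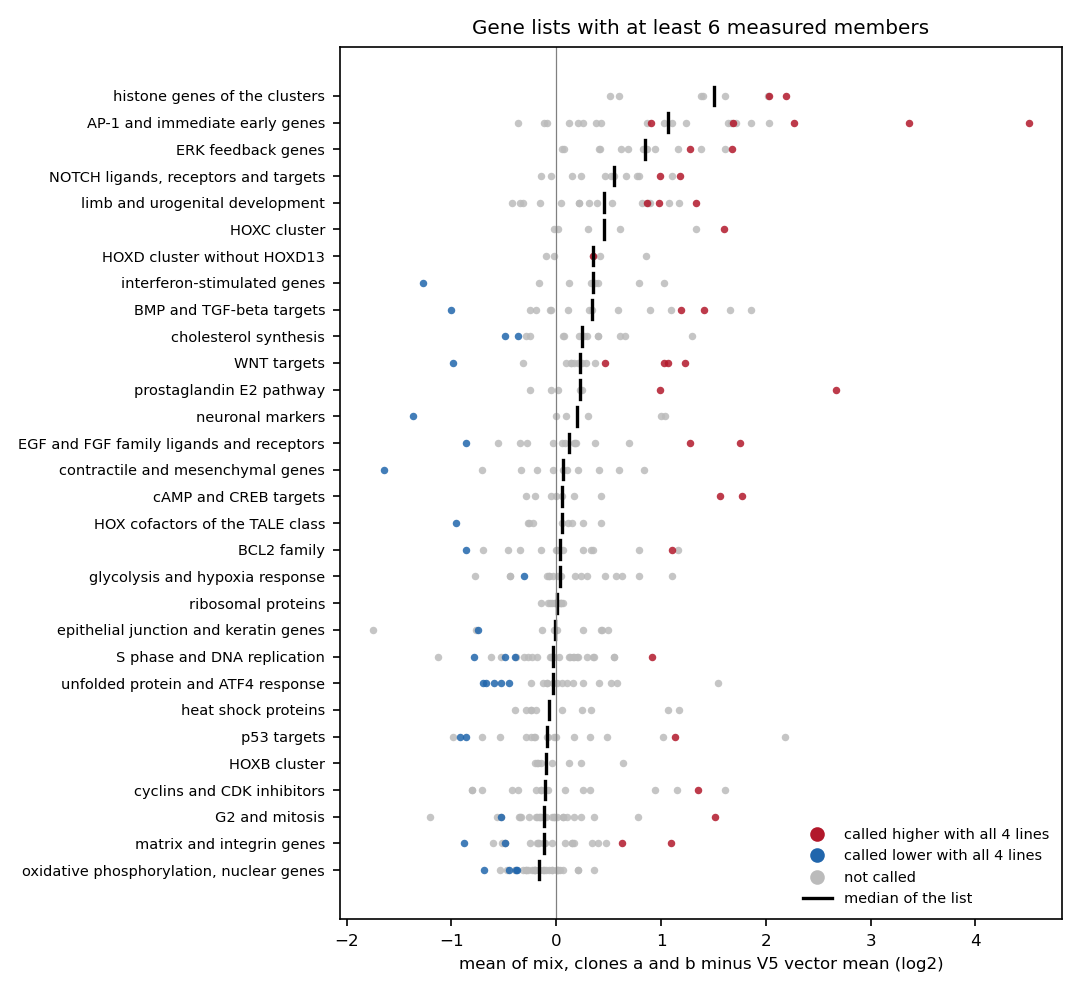
Difference between the mean of the mix with clones a and b and the V5 vector mean (log2, x axis) for each measured gene of the lists that had 6 or more measured, in order of their medians (black bars). Red and blue points were called higher and lower in the test of all 4 HOXD13 lines. Histone genes and immediate early genes have the highest medians, 1.51 and 1.07.

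Histone genes of the replication-dependent clusters had the highest median of any list, 1.51 over 8 measured, with 6 counted higher and 0 lower, and -0.22 in clone c. H2AC6, a histone H2A, read 6.63, 7.05 and 7.48 in the 3 lines and 5.13 in clone c, against 4.90, 4.84 and 4.83 in the vector arrays (adjusted p = 0.0193). H2BC5, a histone H2B, was 2.03 higher (adjusted p = 0.0304), and H1-2, a linker histone, was 2.03 higher in the 3 lines and 0.97 lower in clone c (not called, adjusted p = 0.224). The call of H2AC6 ended without any V5 vector array, the mix or clone a (up to 0.0775) and that of H2BC5 without any array other than clone c (up to 0.11). Histone genes are close copies of each other, so their probe sets may read more than 1, and most of these messages lack a poly(A) tail.

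The cell cycle lists had small median differences. Over all genes 3.48% were counted higher and 2.57% lower, and 2.88% rose and 7.76% fell in the test. Of 28 genes of S phase and DNA replication (median -0.03), 0 were counted higher and 1 lower, and 1 rose and 3 fell in the test. FEN1, a flap nuclease, was 0.92 higher in the 3 lines and rose at the edge of the threshold (adjusted p = 0.05 when rounded). CDC45, a part of the replicative helicase, E2F2, a factor of S phase entry, and POLD1, a DNA polymerase subunit, fell and were 0.78, 0.49 and 0.39 lower in the 3 lines. The call of CDC45 held, that of FEN1 ended without any array other than clone c (up to 0.149), that of E2F2 without any V5 vector array or clone b (up to 0.0858), and that of POLD1 without any V5 vector array, the mix or clone a (up to 0.148).

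Of 27 genes of G2 and mitosis (median -0.11), 1 was counted higher and 1 lower. MKI67, the Ki-67 proliferation marker, was 1.51 higher on its brightest probe set (adjusted p = 0.00493) but as much as 2.88 lower on another of its 4, and the mean of all 4 was lower. HMMR, a hyaluronan-binding spindle protein, was 1.20 lower in the 3 lines and 0.94 higher in clone c and was not called (adjusted p = 0.423). CCNB2, cyclin B2, fell and was 0.53 lower in the 3 lines (adjusted p = 0.0159), with the call lost without any V5 vector array or clone a (up to 0.0741). Among 16 cyclins and CDK inhibitors (median -0.11, 3 counted higher and 0 lower) CDKN2B, an inhibitor of CDK4 and CDK6, read 8.55, 8.73 and 8.91 in the 3 lines and 8.25 in clone c, against 7.36, 7.42 and 7.36 in the vector arrays (adjusted p = 0.00361), and the call held. CDKN1C, the inhibitor p57, was 1.16 higher and was not called (adjusted p = 0.166).

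Targets of p53 had a median of -0.09 over 19 measured, with 3 counted higher and 0 lower. BAX, a pore former in apoptosis, read 7.41, 7.72 and 7.65 in the 3 lines and 7.69 in clone c, against 8.42, 8.40 and 8.54 in the vector arrays (adjusted p = 0.00161), and the call held. SESN1, a stress-induced inhibitor of growth signals, fell and PLK2, a kinase also induced by serum, rose, at 0.92 lower and 1.14 higher in the 3 lines (adjusted p = 0.026 and 0.045). Both calls ended without any array other than clone c (up to 0.144). GADD45B, a stress gene, was 2.18 higher in the 3 lines and 0.43 lower in clone c and was not called (adjusted p = 0.0755). In the BCL2 family (14 measured, median 0.04, 2 counted higher) BCL2L11, the pro-apoptotic BIM, rose and was 1.11 higher in the 3 lines (adjusted p = 0.0417), with the call lost without any array other than clone c (up to 0.134), and BIK, another pro-apoptotic member, was 1.16 higher and not called (adjusted p = 0.119).

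Metabolic and housekeeping groups differed by small amounts. Of 31 nuclear genes of oxidative phosphorylation (median -0.17), none was counted and 4 fell. They were the complex I subunits NDUFV2, NDUFS1 and NDUFB8, lower by 0.69, 0.45 and 0.38 in the 3 lines, and the complex III subunit UQCRC1, lower by 0.38. None of the 4 calls held (adjusted p up to 0.128): each ended without V5 vector 1 and without V5 vector 3, and those of NDUFS1, NDUFB8 and UQCRC1 also without V5 vector 2 and clone a. The mix ended those of NDUFB8 and UQCRC1, and clone b that of NDUFB8. Ribosomal proteins (14 measured) had a median of 0.01, with 0 counted, 0 called by limma and 0 at an unadjusted p under 0.05. In cholesterol synthesis (14 measured, median 0.24, 1 counted higher) the enzymes PMVK and FDPS fell and were 0.49 and 0.36 lower in the 3 lines, and DHCR7, the last enzyme of one branch, was 1.30 higher and not called (adjusted p = 0.145). Glycolysis and hypoxia genes (18 measured, median 0.03, 1 counted higher) held ADM, the peptide adrenomedullin, at 1.11 higher and not called, and ENO1, enolase, which fell and was 0.31 lower in the 3 lines (adjusted p = 0.0211). The call of PMVK ended without V5 vector 1 or 3 (up to 0.0707), and those of FDPS and ENO1 without any array other than clone c (up to 0.15).

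Stress groups were divided. Of 19 genes of the unfolded protein and ATF4 response (median -0.03), 5 fell: ASNS, asparagine synthetase, DDIT3, the factor CHOP, TRIB3, a pseudokinase, PHGDH, the first enzyme of serine synthesis, and XBP1, a factor of the unfolded protein response. They were lower by 0.70, 0.67, 0.59, 0.53 and 0.45 in the 3 lines. The calls of TRIB3 and PHGDH held, that of DDIT3 ended without V5 vector 3 (0.0524), and those of ASNS and XBP1 without any array other than clone c (up to 0.116). SDF2L1, a chaperone cofactor of the endoplasmic reticulum, was 1.55 higher in the 3 lines and 1.18 lower in clone c and was not called (adjusted p = 0.376). Of 10 heat shock genes (median -0.07), 2 were counted higher, DNAJB1 and BAG3, both cofactors of Hsp70, by 1.17 and 1.07, and 0 were called by limma (3 at an unadjusted p under 0.05). HSPA6, 2.92 higher in the 3 lines and not called, is not in that list. Of 8 interferon-stimulated genes (median 0.35), IFI6 was 1.03 higher and not called, and ISG15, a ubiquitin-like protein, was 1.27 lower (adjusted p = 0.0424), a call that ended without any array other than clone c (up to 0.146).

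Structural groups held a few clear members. FN1, fibronectin, read 11.68, 11.63 and 11.65 in the 3 lines and 11.38 in clone c, against 10.55, 10.52 and 10.62 in the vector arrays (adjusted p = 0.000913). All 4 of its probe sets were 1.09 to 1.13 higher, and the call held. The matrix and integrin list (23 measured, median -0.12) had 1 member counted higher, 2 called higher and 2 called lower. LAMA4, a laminin chain, rose and was 0.63 higher in the 3 lines, and COL18A1, a basement membrane collagen, and LAMC1, a laminin chain, fell and were 0.88 and 0.49 lower. The call of LAMC1 held, that of COL18A1 ended without V5 vector 3 (0.0555), and that of LAMA4 without any V5 vector array, clone a or clone b (up to 0.113). ACTA2 was the 1 contractile gene counted or called of 11 (median 0.06). Among 10 epithelial genes (median -0.01) CLDN1, a tight junction protein, fell and was 0.75 lower in the 3 lines (adjusted p = 0.016), with the call lost without any of the vector arrays (up to 0.0886), and ESRP1, an epithelial splicing regulator, was 1.75 lower and not called (adjusted p = 0.0529).

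Markers of other cell types were mostly dim. None of 10 blood and immune or 9 endothelial markers reached a value of 5 on any of the 7 arrays, and their summed log2 levels were 24.3 to 25.0 and 21.7 to 21.8 in the 3 lines, against 24.7 to 24.8 and 21.8 to 22.2 in the vector arrays. Of 11 fibroblast markers 2 reached it (summed level 34.2 to 35.1 in the 3 lines, against 33.3 to 33.9 in the vector arrays). LOX, a collagen crosslinking enzyme, was the 1 called, 0.67 higher in the 3 lines (adjusted p = 0.0282), with the call lost without V5 vector 1 or 2, the mix or clone a (up to 0.145). COL1A1, a fibroblast collagen, differed by 0.09 with overlap of the arrays.

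Of 12 prostate epithelium markers 3 were measured, and OR51E2 was the 1 counted or called. The summed level was 45.5 to 45.8 in the 3 lines, against 41.6 to 42.0 in the vector arrays, a gap close to that of OR51E2 alone. STEAP1 and STEAP2, membrane reductases of the prostate, differed by 0.34 and -0.97 and were not called. Of 16 kidney tubule and progenitor markers 5 were measured, and SIX2, SALL1, EYA1, GATA3 and WT1, factors of the developing kidney, differed by 0.70, 0.39, -0.18, 0.14 and -0.01, with 0 called by limma and 0 at an unadjusted p under 0.05 (summed level 68.4 to 69.5 in the 3 lines, against 67.7 to 67.9 in the vector arrays). Of 17 neuronal markers 6 were measured, with a summed level of 92.1 to 94.8 in the 3 lines and 88.2 in clone c, against 88.9 to 89.0 in the vector arrays. Dim markers below the filter added to that gap. STMN2, NEFH and CHGA had means of 4.29, 3.90 and 2.87 in the 3 lines, against 2.57, 2.55 and 2.32 in the vector arrays. TUBB3, neuronal tubulin, and NEFL, a neurofilament, were 1.04 and 1.0 higher in the 3 lines and were not called (adjusted p = 0.0985 and 0.0721). MAP2, a dendritic microtubule protein, was 1.36 lower (adjusted p = 0.014), and its call ended without any of the vector arrays (up to 0.07).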

How the data were processed

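The authors deposited log2 expression values of a human Affymetrix array with 54675 probe sets for 14 arrays, made with GCRMA per the submitters' processing notes, and its version is not given in the sources used here. Probe sets took gene names from the platform annotation: 41097 had 1 gene, 1801 several and 11777 none listed, and 41043 of the first kind matched RefSeq (GRCh38.p14). The 62 control probe sets were left out. Of these, 19816 reached a value of 5 on 3 or more arrays and were kept, and the one with the highest mean stood for each of 10349 genes. Array data carry no counts, so the number of arrays limits the precision.

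Samples were grouped by their labels. The mix, clone a and clone b were compared with the V5 vector arrays as means, with a gene counted at 2-fold or more and no overlap. All 4 HOXD13 lines (n = 4) were tested against the V5 vector (n = 3) with limma 3.58.1 in R 4.3.3 (lmFit, eBayes, 14 arrays, 4 group means, 10 residual degrees of freedom). The procedure was run on simulated data with known changes and independent noise on each array. These data hold no line that departs across many genes as clone c does. Figures were drawn with matplotlib 3.10.9. The members, the gene lists and the tests were chosen with earlier results of these data known, and the CArG box was added after seeing the data. Genes named are HOXD13, OR51E2, PTGER4 and FOS, the 14 largest higher and lower differences among counted genes, up to 3 members of each list that were counted or called, and all measured members of lists with under 6. Alternatives were other filters, the mean of probe sets, centring, the V5 set alone, trend and robust moderation, an RNA quality covariate, other fold thresholds and each array left out.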

Additional observations from a re-analysis of the deposited data

Results flagged for a closer look

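In 8 of 109 values tested over the 4 HOXD13 lines, clone c stood farther from its nearest neighbour than Dixon's 95% limit allows, a gap that chance gives in about 1 in 20 groups. Clone c read 8.13 for SERTAD1, 9.64 for MYC, 9.03 for BAMBI, 11.38 for FN1, 11.92 for TUBB3, 5.16 for TP53I3, an oxidoreductase induced by p53, and 8.26 for the dimmest HOXD13 probe set, each below the other 3 lines. It read 12.01 for NDUFB8, above them. No other line was set apart in this way. Clone c was left out of the comparison for its values, so these gaps are no independent sign of its difference, and their cause was not tested.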

How the results depend on the processing

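No paired analysis was possible because the labels give the HOXD13 lines no replicate numbers to share with the vector arrays. The counts of genes at least 2-fold apart were 281 to 489 higher and 211 to 375 lower without 1 array. They were 1169 higher and 1018 lower at 1.5-fold, and 36 higher and 10 lower at 4-fold. The calls of all 4 lines were 58 to 1959 higher and 245 to 1742 lower without 1 array, 179 higher without a filter on dim probe sets, and 1072 higher and 1524 lower with the ACTB 3′ minus 5′ value as a covariate. Filters, the mean of probe sets, centring, the V5 set alone and trend moderation kept the other counts within 1.5 times. The third HOXD13 probe set gave 0.81 to 1.33 without 1 array and the other 2 probe sets kept their calls. With the mean of probe sets MKI67 turned to -0.50 in the 4 lines and -0.66 in the 3 lines, and HEY2 to -0.22 and -0.0693. COL1A1, near 0 in the 4 lines, turned to -0.247 with that mean, -0.000244 without V5 vector 2, -0.029 without V5 vector 3, -0.0996 without clone a and -0.0853 without clone b (up to 0.143, without the mix), and GATA3 to -0.00846 without clone a and -0.0280 without clone b (up to 0.142, without clone c). The cause of these moves was not tested, except that fewer arrays or other probe sets entered by construction. TENT5C, HNRNPLL and ERRFI1, which kept their calls without each array, lost them in the fit on the V5 set alone (adjusted p = 0.0571, 0.0729 and 0.0614).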

Other observations

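Some genes outside the rule for named genes, chosen after their values were seen, were also higher or lower in all 4 HOXD13 lines. RFX6, a winged-helix factor of the endocrine pancreas, read 5.28, 5.97, 5.46 and 5.79 in the mix and clones a, b and c, against a V5 vector mean of 3.24 (adjusted p = 3.34e-06). S1PR3, a receptor for sphingosine 1-phosphate, was 1.93 higher in the 3 lines (adjusted p = 0.00888), CHRM3, a muscarinic acetylcholine receptor, 1.90 higher (adjusted p = 0.0112) and GPRC5B, an orphan receptor, 2.13 higher (adjusted p = 0.0199). MAFF, a small MAF factor, was 2.03 higher (adjusted p = 0.0106). Clone c was only 0.43, 0.51, 0.31 and 0.50 above the vector mean for S1PR3, CHRM3, GPRC5B and MAFF.

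Lower genes included NT5M, a mitochondrial nucleotidase, at 3.44, 3.74 and 3.37 in the 3 lines and 4.17 in clone c, against a vector mean of 5.23 (adjusted p = 0.00087). AKNA, an AT-hook protein of the centrosome, was 1.61 lower (adjusted p = 0.000913), ALDH1A3, an enzyme of retinoic acid synthesis, 1.6 lower (adjusted p = 0.00589), GSTZ1, which acts in the breakdown of tyrosine, 1.95 lower (adjusted p = 0.00427) and IRS1, an adaptor of the insulin receptor, 1.85 lower (adjusted p = 0.012). These calls were not recomputed without single arrays. Clone c was 0.86, 0.52, 0.74 and 0.50 below the vector mean for AKNA, ALDH1A3, GSTZ1 and IRS1, less than the 3 lines.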
